A study of Mus musculus with 14 samples.

Results

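The RNA of 10 integrin subunits of wounded mouse fibroblasts was followed by sequencing, with and without autologous micrograft (AMG). They were the rows named Itga1, Itga2, Itga3, Itga4, Itga5, Itga11, Itgav, Itgb1, Itgb3 and Itgb5 in both deposited tables, 10 of 43472 listed genes, and all 10 were expressed above the filter used for testing. Primary fibroblasts came from the tail tip of C57BL/6 mice, were grown as a monolayer in medium with serum, and were scratched to make a wound in the dish. AMG was prepared by mincing and filtering mouse skin, centrifuging it to remove cells and debris, and mixing the soluble extract into the medium. Untreated cells and cells given AMG were collected at 1, 5, 12 and 24 h in replicate 1. In replicates 2, 3 and 4 they were collected at 5 h only. The age and sex of the mice, whether a number marks 1 animal, and whether untreated cells received the buffer of the extract are not given in the sources used here, so p-values measure the spread between these samples, which may be technical. Cells from collagenase-digested tail can hold other types than fibroblasts, and in bulk RNA fewer cells of a type and less RNA per cell cannot be told apart.

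Integrins are transmembrane receptors made of an alpha and a beta subunit, and they tie the extracellular matrix to the actin cytoskeleton. The alpha subunit largely sets the ligand. Alpha 1, alpha 2 and alpha 11 pair with beta 1 to bind collagen, alpha 3 beta 1 binds laminin, alpha 5 beta 1 is the classical fibronectin receptor, and alpha 4 binds fibronectin and VCAM-1. Alpha v pairs with beta 1, beta 3 or beta 5 and binds vitronectin, fibronectin and latent TGF-beta. Fibroblasts that enter a wound use fibronectin and vitronectin receptors on the provisional matrix and collagen receptors on the dermal matrix.

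The collagen receptor genes Itga2 and Itga1 are neighbours on the minus strand of chromosome 13 (GRCm38), where Itga2 spans 114833081 to 114932100 and Itga1 spans 114953096 to 115101964. They lie 20995 bases apart, with 0 protein-coding genes between them. The third collagen receptor among the members, Itga11, lies on the plus strand of chromosome 9 from 62677826 to 62783982. At 5 h in replicates 2 to 4, Itga2 went the opposite way from its neighbour and from Itga11. In replicate 1 it did so at 12 and 24 h and not at 1 or 5 h. Itga5 was the alpha subunit with the most RNA. For these reasons the sequences upstream of these 3 genes and of the fibronectin receptor gene Itga5 are shown. Each is a RefSeq window on GRCm38.p6 and runs 5′ to 3′ on the gene's own strand, in lower case with each GC box in capitals. Those of Itga2, Itga1 and Itga11 end at the base before the gene model used here. That of Itga5 ends at 103366792, some bases upstream of its gene model (103366763). The Itga11 window was shortened where it overlapped a transcript.
Itga2, chr13:114932101-114932350, minus strand: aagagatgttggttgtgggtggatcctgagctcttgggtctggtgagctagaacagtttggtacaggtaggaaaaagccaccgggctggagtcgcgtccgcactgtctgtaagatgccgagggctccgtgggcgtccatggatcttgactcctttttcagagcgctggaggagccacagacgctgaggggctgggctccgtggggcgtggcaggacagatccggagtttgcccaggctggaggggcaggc
Itga1, chr13:115101965-115102214, minus strand: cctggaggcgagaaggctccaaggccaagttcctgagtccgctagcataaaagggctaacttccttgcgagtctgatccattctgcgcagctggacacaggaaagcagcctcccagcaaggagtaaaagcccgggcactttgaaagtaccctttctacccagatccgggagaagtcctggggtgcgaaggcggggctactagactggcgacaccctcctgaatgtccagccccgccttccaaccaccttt
Itga11, chr9:62677605-62677825, plus strand: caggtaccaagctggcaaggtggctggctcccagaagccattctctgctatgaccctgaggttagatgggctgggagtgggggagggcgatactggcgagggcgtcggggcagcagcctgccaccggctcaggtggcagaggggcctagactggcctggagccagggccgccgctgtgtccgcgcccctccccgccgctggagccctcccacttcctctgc
Itga5, chr15:103366792-103367041, minus strand: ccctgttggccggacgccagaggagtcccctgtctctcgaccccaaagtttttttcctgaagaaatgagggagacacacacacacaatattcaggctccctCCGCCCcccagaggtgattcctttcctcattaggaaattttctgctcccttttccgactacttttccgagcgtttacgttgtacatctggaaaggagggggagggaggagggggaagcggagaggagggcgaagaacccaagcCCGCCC

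A promoter window was matched for 9 of the 10 genes, in 10 windows of 250 bases. Itgb3 had no window, so its promoter was not searched. On either strand, the GC box (GGGCGG) was found upstream of Itga3, Itga4, Itga5, Itgb1 and Itgb5 and not in the windows of Itga1, Itga2, Itga11 and Itgav. Of 32851 windows of the same length from all genes, 32.7% held it. The AP-1 element (TGANTCA), the NF-kB element, the CArG box and the TATA box (TATAAA) had 0 matches in the 10 windows, against 6.75%, 3.90%, 1.47% and 12.4% of all windows. A match or its lack describes these letters only.

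Sequencing depth in the 14 libraries ran from 12545537 to 34696529 reads assigned to genes. The values are normalised counts, which are reads divided by a size factor of the library, and they were scaled separately in the table of replicate 1 and in that of replicates 2 to 4, so levels were compared within a table only. In 2 libraries of replicate 1 the 85 cytoplasmic ribosomal protein genes took a larger share of the reads, 6.35% in Untreated 5h and 4.63% in AMG-treated 1h, against 2.03% to 3.10% in the other 12. Values of replicate 1 at 1 h and 5 h rest on them. Treated to untreated ratios also followed transcript length across genes (Spearman's rho from -0.42 to -0.22 in replicates 2 to 4, and -0.49, 0.47, 0.18 and -0.23 in replicate 1 at 1, 5, 12 and 24 h), and 9 of the 10 integrin genes had a longest transcript above the median of tested genes (3389 bases). The part of length in the results was not tested beyond the length-corrected values given beside them. Markers of fibroblasts (Col1a1, Pdgfra, Dcn and 7 others) summed to 270254 to 675537 normalised counts over all libraries. In replicates 2 to 4 this list summed to 485208 to 675537 untreated and 412102 to 533552 with AMG, with a median log2 fold change of -0.41. With the replicate block (the replicate number as a term of the fit), 6 of its 10 genes were lower and 1 higher. Of all genes, 19.3% were called lower and 17.9% higher in that fit. Krt1 had 0 reads in all 14 libraries and Krt5 and Krt14 had at most 3. The keratinocyte list nevertheless summed to 180 to 350 in untreated and 103 to 165 in AMG-treated libraries of replicates 2 to 4. In replicate 1 this list summed to 294 to 844. The leukocyte list reached at most 1908 and the endothelial list at most 238. The smooth muscle list, in which Acta2 is also a myofibroblast gene, summed to 171275 to 187441 untreated and 155110 to 183364 treated in replicates 2 to 4. In replicate 1 it summed to 18662 to 156247. With AMG, 1 of its 6 genes was called lower in replicates 2 to 4 without the block, as were 0.267% of all genes. This was Lmod1, named after its value was seen (log2 fold change -1.08, adjusted p = 0.0190 with limma). With the replicate block 2 of the 6 were called lower and 0 higher, and 5 had a negative log2 fold change. The skeletal muscle list summed to 2898 to 7293 untreated and 1747 to 5494 treated in replicates 2 to 4, and to 275 to 2045 in replicate 1. The platelet list summed to 2619 to 14860 over all libraries, nearly all of it Ppbp, while Gp9 had 0 reads. The part of these cells in the results was not tested.

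Per kilobase of exon, untreated fibroblasts at 5 h (replicates 2 to 4) had the most RNA of Itgb1, the common beta subunit, at 11186 ± 1690 normalised counts (SD, n = 3), and of Itga5 at 8033 ± 735. Itgb5 followed at 2236 ± 816, Itga11 at 1149 ± 671, Itga3 at 556 ± 319 and Itgav at 509 ± 135, and the ranges of neighbours among these 4 overlapped. Itgb3 stood at 144 ± 102 and Itga1 at 50.4 ± 15.6 per kilobase, and Itga4 (2.63 ± 0.78) and Itga2 (2.11 ± 1.28) were lowest, with overlapping ranges. Of the per-kilobase RNA of the 3 collagen receptor genes among the members, Itga11 made up 92.3% to 96.3% in untreated cells. Alpha subunits outside the members, such as Itga10 (57.3 ± 7.5 normalised counts untreated and 75.2 ± 31.3 with AMG), are not in these shares. With AMG the order changed in the middle and at the bottom. Itgb3 reached 527 ± 292 per kilobase, a range that overlapped those of Itga11 (578 ± 255) and Itgav (526 ± 129), and Itga2 (9.73 ± 5.99) lay above Itga4 (2.02 ± 0.92) without overlap. Itga5 (9152 ± 1525) and Itgb1 (9124 ± 998) led with overlapping ranges. Dividing by the longest transcript instead changed the rank of 2 genes untreated and 3 treated.

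The main question was which subunit transcripts AMG moved at 5 h, in replicates 2 to 4. Itga2 and Itgb3 were higher with AMG by 4.40-fold and 3.87-fold, and the collagen receptors Itga1 and Itga11 were lower by 1.75-fold and 1.85-fold. Itga3, Itgb1 and Itgb5 were lower by at most 1.24-fold, and Itga5 and Itgav, the main fibronectin and vitronectin alpha subunits, differed by 1.13-fold and 1.04-fold. None of the 10 passed an adjusted p under 0.05 in the unpaired fit (limma on log2 of the normalised count plus 1), and 3 of them (Itga1, Itga2 and Itgb3) had an unadjusted p under 0.05, as did 23.1% of all genes. In that fit 1.24% of 13096 genes were called. Libraries of the same replicate number deviated together from their group means, and with the number as a block 6 of the 10 passed, with Itga2 and Itgb3 higher and Itga1, Itga3, Itga11 and Itgb5 lower. The blocked fit called 17.9% of all genes higher and 19.3% lower, 37.2% in all, so that 6 of 10 is to be read against a large background. The members' median log2 fold change was -0.30, against -0.02 over all genes. That median was not corrected for length, while ratios fell with transcript length in these replicates. Of the 10 genes, 9 had a longest transcript above the median of tested genes.

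**Figure D1:**
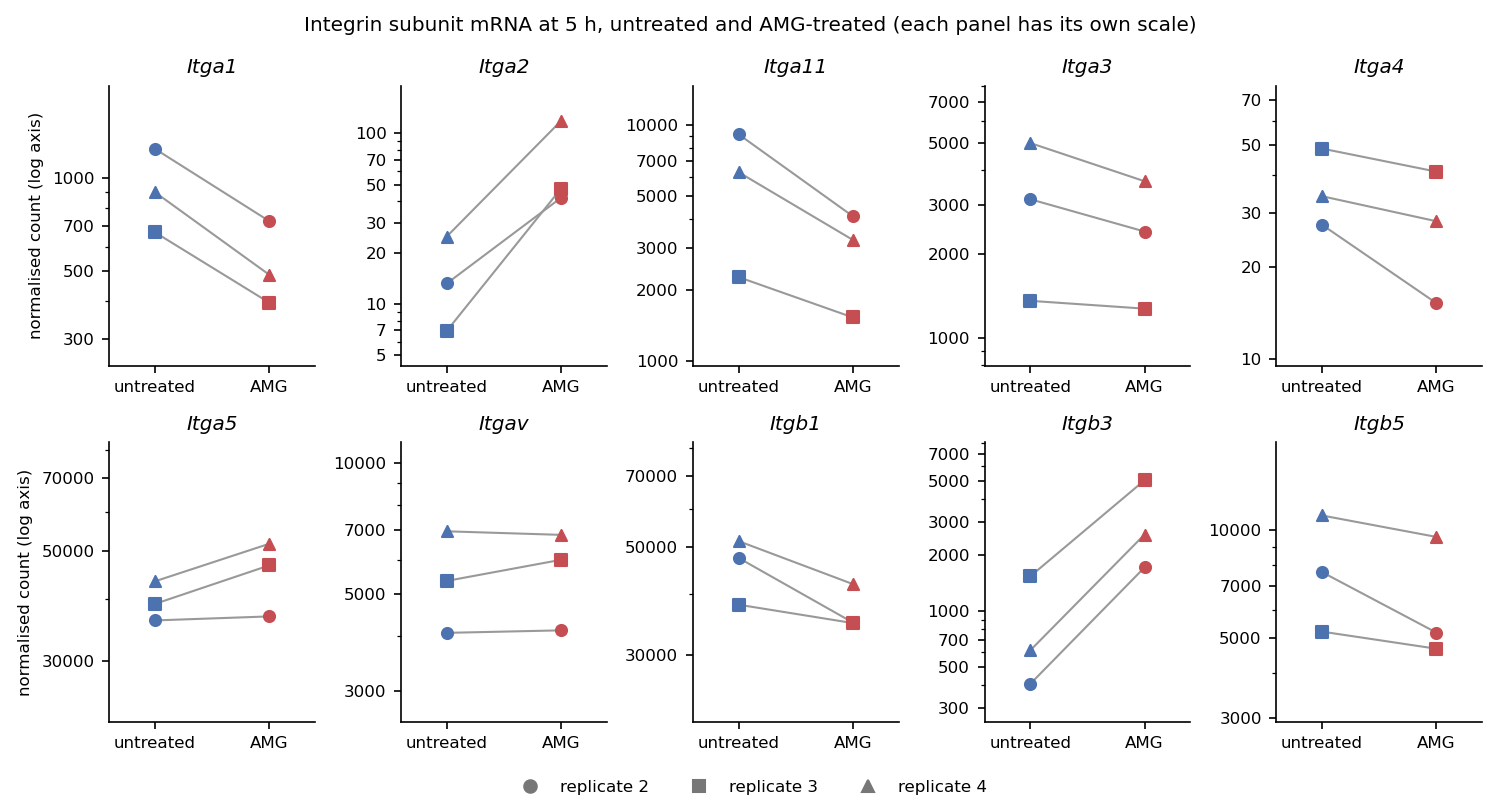
Normalised counts (vertical log axis, its own scale in each panel) of the 10 integrin genes at 5 h in untreated (blue) and AMG-treated (red) libraries, with a line joining the libraries of each replicate number. Itga2 and Itgb3 rise along all 3 lines with no overlap between the groups, and Itga1 and Itga11 fall along all 3 lines while their groups overlap.

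Among the collagen receptors, Itga2 had 13.2, 6.96 and 24.9 normalised counts in untreated replicates 2, 3 and 4 and 42.0, 47.5 and 118.6 in the AMG-treated ones. All treated values lay above all untreated values, a separation in this direction that 15.1% of tested genes had. Their log2 difference was 2.14 (SE 0.60, limma adjusted p = 0.116), and with the replicate block its 95% interval was 1.39 to 2.89 and its adjusted p 0.00181. These values rest on 5 to 105 reads per library, so Itga2 was a rare transcript in both groups.

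Itga1 was counted at 1244, 667 and 900.03 in untreated cells and at 725, 394 and 486 with AMG. Every pair fell, by 0.78, 0.76 and 0.89 on the log2 scale, although the treated value of replicate 2 exceeded the untreated one of replicate 3. The log2 fold change of -0.81 (SE 0.30) did not pass limma unpaired (adjusted p = 0.178) and passed with the block (0.000755), where the interval was -1.04 to -0.57. Its exons share 685 bases with Gm49395 on the same strand, so reads there are uncertain.

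Itga11, the collagen receptor of stromal fibroblasts, had 9119, 2268 and 6304 normalised counts untreated and 4103, 1531 and 3259 with AMG. Untreated libraries differed among themselves by 4.02-fold, more than treated from untreated, with replicate 3 lowest in both groups. Its log2 fold change of -0.89 (SE 0.57, adjusted p = 0.378 with limma) had an adjusted p of 0.000746 in the blocked fit. Itga2 made up 0.10%, 0.20% and 0.27% of the per-kilobase RNA of the 3 collagen receptor genes in untreated replicates 2, 3 and 4, and 0.70%, 2.04% and 2.45% in treated ones. Itga11 still made up 91.5% to 94.7% with AMG.

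The laminin receptor gene Itga3 (chromosome 11, 95044474 to 95076801) counted 3149, 1363 and 5006 untreated and 2414, 1278 and 3653 treated. The groups overlapped widely, and each pair fell by 0.09 to 0.45. Its log2 fold change of -0.31 (SE 0.54, adjusted p = 0.765 with limma) passed with the block (adjusted p = 0.0351), not with the block and a length correction (0.162) or without replicate 2 (0.220) or 4 (0.298), and changed sign without the untreated library of replicate 4 (0.11) or the treated one of replicate 3 (0.09). No direction is drawn for it.

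Of the fibronectin receptors, Itga5 (chromosome 15, 103344286 to 103366763) had 36259, 39150 and 43466 normalised counts untreated and 36938, 46792 and 51714 with AMG. Each treated library was above its untreated partner, by 0.03 to 0.26 on the log2 scale, and the groups overlapped. The log2 fold change of 0.18 (SE 0.19) passed neither limma fit (adjusted p = 0.595, and 0.218 with the block), and the blocked interval of -0.06 to 0.42 ended at 1.34-fold.

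Itga4 (chromosome 2, 79255426 to 79333123) was near the lower end of measurable levels, at 27.5, 48.7 and 34.1 untreated and 15.3, 41.0 and 28.2 with AMG. Its groups overlapped, and neither fit called it (log2 fold change -0.44, SE 0.46, adjusted p = 0.596 with limma and 0.294 with the block). With 12 to 63 reads per library the blocked interval was wide, -1.14 to 0.26. Cerkl overlaps it by 1124 bases on the other strand, and the strand setting of the counting is not stated.

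Among the vitronectin and RGD receptors, Itgb3 (chromosome 11, 104608000 to 104670476) had 406, 1536 and 614 normalised counts in untreated replicates 2, 3 and 4 and 1715, 5040 and 2576 with AMG. The groups did not overlap, and the lowest treated library was just above the highest untreated one, since replicate 3 was highest in both groups. The difference in log2 units was 1.95 (SE 0.56, limma adjusted p = 0.119), and the pairs rose by 2.08, 1.71 and 2.07. Within pairs the spread was small, and the blocked interval was 1.72 to 2.19 (adjusted p = 4.33e-06). DESeq2 on the recovered reads, the tool closest to that of the study, gave adjusted p of 0.0100 for Itgb3 and 0.0215 for Itga2 and called no other member, beside 6.52% of all genes higher and 4.43% lower (10.9%). The quasi-likelihood test of edgeR on the same reads called 0 of the 10, and 0.817% of all genes higher and 0.214% lower (1.03%).

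Itgb5, the other beta partner of alpha v shown here (chromosome 16, 33829665 to 33949338), had 7637, 5212 and 10986 untreated and 5181, 4670 and 9573 treated, with overlapping groups. Its log2 fold change of -0.31 (SE 0.36) had an adjusted p of 0.636 with limma, and its call with the block (0.0420) was lost in blocked edgeR (0.0519) and in the blocked fit without replicate 2 (0.359) or without replicate 4 (0.0874). Itgb3 took 3.10%, 15.1% and 3.26% of the per-kilobase RNA of Itgb3 and Itgb5 together in untreated libraries and 16.6%, 39.4% and 13.9% in treated ones.

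Itgav itself (chromosome 2, 83724397 to 83806916) stayed close between the groups, at 4074, 5359 and 6963 untreated and 4129, 5991 and 6833 treated. It differed by 0.05 on the log2 scale (SE 0.26, limma adjusted p = 0.927), with a blocked interval of -0.15 to 0.25. The common beta subunit Itgb1 (chromosome 8, 128685654 to 128733200) counted 47489, 38020 and 51441 untreated and 34932, 34838 and 41938 treated. All 3 pairs of Itgb1 fell, by 0.13 to 0.44, and it did not pass in either fit (log2 fold change -0.29, SE 0.18, adjusted p = 0.377 with limma and 0.0650 with the block). A length correction with the block called 7 members, with Itga5 (0.30) and Itgav (0.32) added as higher and Itga3 lost. In that fit 33.9% of all genes were called. Corrected log2 fold changes were -0.48 for Itga1, -0.72 for Itga11 and -0.12 for Itga4, against -0.81, -0.89 and -0.44 uncorrected. Those of Itga2 and Itgb3 were 2.41 and 2.17, against 2.14 and 1.95.

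**Figure D2:**
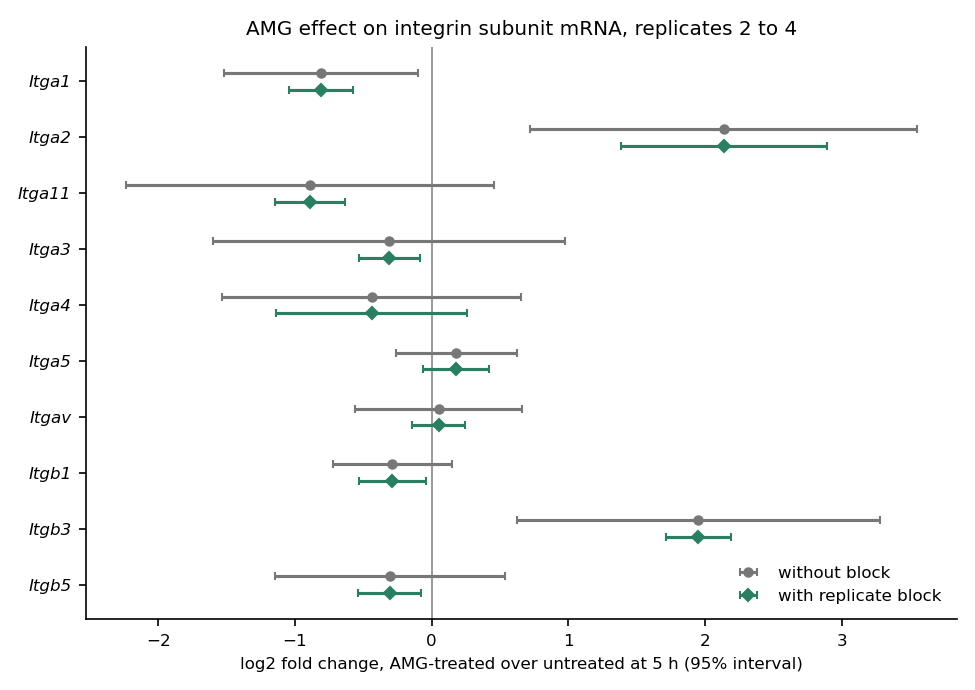
Log2 fold change of AMG-treated over untreated cells at 5 h for each integrin gene (horizontal axis, replicates 2 to 4), with 95% intervals without (grey circles) and with (green diamonds) the replicate block. Only Itga2 and Itgb3 lie above 1, and the block shortens each interval, most for Itga11, Itga3 and Itgb3.

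The pairs of replicate numbers held up to different degrees when replicate 1 was set beside the others. Itga2, Itga5 and Itgb3 were higher with AMG in 4 of 4 pairs at 5 h, which held for 15.7% of 12844 genes, and Itga4 and Itgb5 were lower in 4 of 4, which held for 16%. Itga1, Itga3, Itga11 and Itgb1 were lower in 3 of 3 pairs (34.5% of all genes) and higher in replicate 1, by 0.19, 1.11, 1.46 and 0.27 on the log2 scale, where the untreated library stood apart. The counting interval of Itga1 there was -0.14 to 0.53, and its ratio became -0.59 after a length correction. A fit of all 4 pairs (edgeR with the replicate block) called Itgb3 (log2 fold change 2.19, adjusted p = 0.00633) and Itga2 (2.47, adjusted p = 0.0219) and no other member, beside 2.49% of all genes called higher and 3.78% in all.

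The time course asked how the response developed, and with 1 library per group and time it was not tested. In replicate 1, Itgb3 and Itga2 were higher with AMG at 5, 12 and 24 h and not at 1 h, and Itga1 and Itga11 were lower at 1, 12 and 24 h and most of all at 24 h. The number of members higher with AMG was 1, 8, 4 and 4 of 10 at 1, 5, 12 and 24 h, against 47%, 49.8%, 48.9% and 51.6% of all genes. After a length correction it was 4, 6, 4 and 4. The number with a log2 ratio above 1 and below -1 was 0 and 2 at 1 h, 5 and 0 at 5 h, 3 and 2 at 12 h, and 3 and 2 at 24 h. Over all 13498 genes above the filter, 11.3% and 10.7% passed these sizes at 1 h and 13.3% and 12.6% at 5 h. At 12 h 5.93% and 6.90% passed, and at 24 h 6.05% and 8.05%. After a length correction Itga2 (-0.76) and Itga11 (-0.66) were not below -1 at 1 h, and Itgav (1.21) was above 1. At 5 h Itga3 (0.79) was then not above 1, and Itga4 (-1.03) was below -1. The same members passed at 12 and 24 h.

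Itgb3 counted 3187, 1759, 872 and 535 in untreated cells at 1, 5, 12 and 24 h and 2450, 12767, 6366 and 2950 with AMG. Untreated levels were lower at each later time, while treated levels peaked at 5 h. The log2 ratios were -0.38, 2.86, 2.87 and 2.46, and the 95% counting interval at 24 h was 2.35 to 2.59. Itgb3 made up 63.3% of the per-kilobase RNA of Itgb3 and Itgb5 in AMG-treated cells at 5 h and 18.8% in untreated cells, and 25.1% against 5.24% at 24 h.

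Itga2 had 21.97, 4.92, 1.46 and 6.89 normalised counts untreated, from 25, 3, 2 and 9 reads, and 8.69, 66.5, 41.0 and 34.2 with AMG. Its log2 ratios were -1.24, 3.51, 4.09 and 2.16. The untreated values at 5 h and 12 h were at or under the floor of 3 reads, so these ratios carry wide counting intervals, 2.16 to 6.06 and 2.87 to 7.90. At 1 h the interval of -3.08 to 0.07 included no difference.

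Itga1 counted 388, 177, 307 and 423 untreated and 223, 202, 99.1 and 44.1 with AMG, log2 ratios of -0.80, 0.19, -1.62 and -3.23. Itga11 counted 954, 162, 441 and 789.5 untreated and 473, 447, 142 and 48.6 treated, log2 ratios of -1.01, 1.46, -1.63 and -3.99. After a length correction the 1 h ratios of Itga1 and Itga11 were -0.28 and -0.66, and those at 24 h were -2.99 and -3.90. The AMG-treated library at 1 h stood apart. In treated cells both had their lowest value at 24 h, 5.05-fold and 9.73-fold below 1 h, and in untreated cells both dipped at 5 h, in the library that stood apart. At 24 h Itga2 made up 28.8% of the per-kilobase RNA of the 3 collagen receptor genes with AMG and 0.54% without. The smooth muscle list had a median of -1.18 at 12 h and -1.96 at 24 h, as log2 ratios, and its part in the fall of Itga1 and Itga11 was not tested.

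The other members varied less or later. Itga4 had 23.7, 21.3, 24.1 and 42.9 normalised counts untreated and 12.2, 17.0, 68.6 and 106.2 with AMG, so that it was higher only at 12 h (log2 ratio 1.47, counting interval 0.89 to 2.15) and 24 h (1.29, 0.84 to 1.79). Itga5 counted 55722, 16076, 15292 and 13015 untreated and 51826, 41092, 10718 and 10678 treated. Its treated level was 2.56-fold the untreated one at 5 h and below it at 1, 12 and 24 h, and in both arms it was lowest at 24 h. The untreated library at 5 h stood apart, and in replicates 2 to 4 Itga5 differed by 1.13-fold. Itga3 had log2 ratios of -0.97, 1.11, -0.56 and -0.38. Its value at 5 h rests on the same library, against -0.31 in replicates 2 to 4.

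Itgav was higher with AMG at all 4 times, with log2 ratios of 0.73, 0.23, 0.58 and 0.37, of which that at 5 h became -0.35 after a length correction. With that correction Itgb3 was higher at all 4 times (0.0379, 2.41, 2.78 and 2.58). Itgb1 stayed between -0.19 and 0.27, and Itgb5 was lower at each time, by 0.35, 0.04, 0.22 and 0.13. At 5 h the counting interval of Itgb5 included 0.

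**Figure D3:**
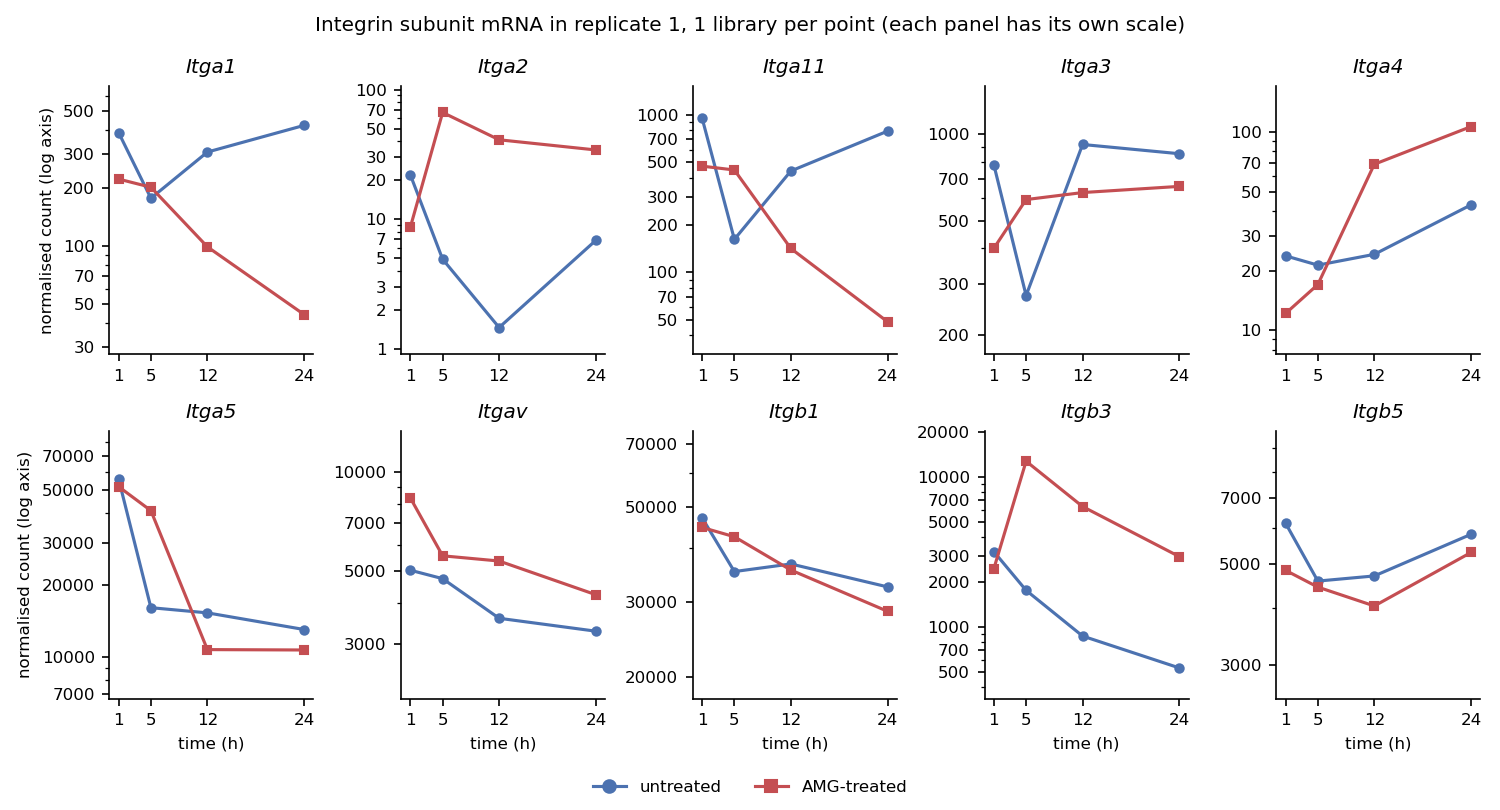
Normalised counts (vertical log axis, its own scale in each panel) of the 10 integrin genes against time in h in replicate 1, with 1 library per point, untreated in blue and AMG-treated in red. Treated Itgb3 and Itga2 lie above untreated from 5 h on, and treated Itga1 and Itga11 end at 44.1 and 48.6 at 24 h.

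**Figure D4:**
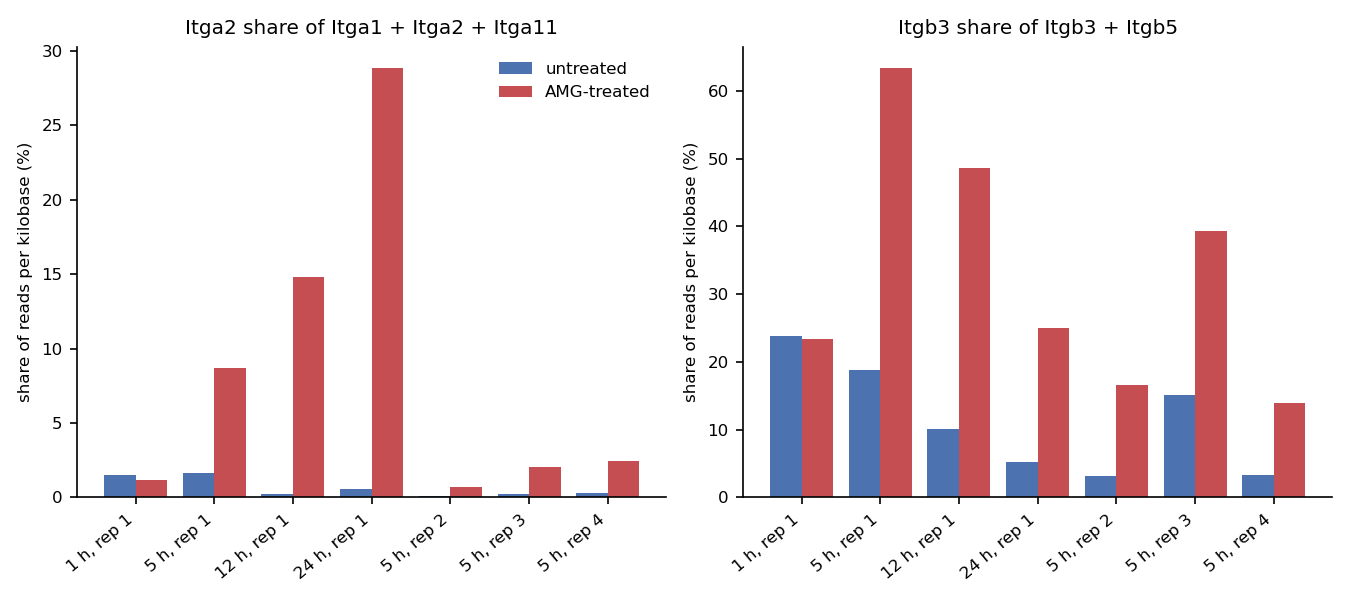
Share (%) of Itga2 among the reads per kilobase of Itga1, Itga2 and Itga11 (left) and of Itgb3 among Itgb3 and Itgb5 (right). Bars start at 0 and show each untreated (blue) and AMG-treated (red) library. Both shares are higher with AMG in every pair but those of 1 h, and reach 28.8% (24 h) and 63.3% (5 h) in replicate 1.

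Likeness between genes was taken over the 14 libraries, after centring log2 values within each table. Itga1 and Itga11 had a Pearson's r of 0.95 with each other, Itga3 and Itgb5 of 0.74, and Itga2 and Itgb3 of 0.75. Among 10886 genes, those most like Itga1 were Myom1 (r = 0.98) and Limch1 (0.96), and for Itga11 they were Pcsk6 (0.97) and St8sia2 (0.96). Dkc1 and Noc2l (both 0.96) were most like Itgb3, and Mtf1 and Afg3l2 (both 0.91) most like Itga2. Myo18a (0.94) and Arhgef5 (0.93) came first for Itga3, and Atp9a (0.91) and Plod1 (0.89) for Itgb5. The libraries share treatment, time and depth, so these are descriptions without a test.

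Around the receptors, none of the 98 tested genes of 5 pathway lists passed in the unpaired limma fit at 5 h, 24 had an unadjusted p under 0.05 (23.1% of all genes), and DESeq2 on the reads called 16 (10.9% of all genes). With the replicate block, 2 of 11 tested other integrin subunits were lower and 0 higher (median log2 fold change -0.06). They were Itga8, an RGD-binding alpha subunit (498 ± 248 to 276 ± 149, adjusted p = 0.00126 with the limma block), and Itgb8, which pairs with alpha v (57.0 ± 24.7 to 29.6 ± 36.3, 0.0311). Itga2b and Itgb4 did not pass (0.0594 and 0.224).

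Of 30 tested extracellular ligands, 3 were higher and 16 lower with the block, with a median of -0.36. Vcam1, the ligand of alpha 4 beta 1, went from 992 ± 421 untreated to 3347 ± 930 normalised counts with AMG (SD, n = 3), and limma gave an adjusted p of 0.0572, or 0.00164 with the block. Tgfb1, whose latent form binds alpha v integrins, was higher by 1.05 on the log2 scale (limma adjusted p = 0.0658 and 7.76e-05). Thbs1, a matricellular ligand, was lower (-1.27, adjusted p = 0.0898 and 0.00180 in the same limma fits), as was the laminin chain Lama5 (-0.77, 0.404 and 0.00148).

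Adhesion adaptors and kinases, which couple integrin tails to actin, had 3 higher and 16 lower of 32 with the block (median -0.26). Vinculin (Vcl) went from 35055 ± 5195 to 20864 ± 4159 normalised counts, where the adjusted p was 0.113 in limma unpaired and 0.00106 blocked. The vinculin-binding adaptor Sorbs3 (log2 fold change -0.71) and the talin-binding Kank2 (-0.75) were also lower with the block. Among 10 regulators of integrin activation, Rap1b, a small GTPase that promotes it, was higher (0.92, limma adjusted p = 0.0713, blocked 0.000251), Rasa3 and Rap1gap, which switch off Rap1, were lower with the block (-0.81 and -0.93), and Itgb1bp1 did not pass (0.174). The list median was 0.02.

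Co-receptors and membrane partners went the other way, with 8 higher and 2 lower of 15 with the block (median 0.36). The urokinase receptor Plaur went from 4671 ± 1775 to 9941 ± 4013 and the syndecan Sdc4 from 7732 ± 2561 to 18129 ± 8955 normalised counts, with adjusted p of 4.54e-05 and 0.000457 in the limma block fit and of 0.195 and 0.196 without it. The tetraspanin Cd82 (1.08) and Slc3a2 (0.61), which binds beta subunits, were higher with the block as well. These counts stand beside the 17.9% higher and 19.3% lower of all genes in that fit, and no list was tested as a set. Ratios at 5 h fell with transcript length in replicates 2 to 4 (Spearman's rho -0.35, -0.22 and -0.42). In replicate 1 they rose with it (0.47). The list medians were not corrected for length, and its part in them was not tested. In replicate 1 at 5 h, where the untreated library stood apart, 4 of the 5 lists had medians of the other sign, 0.77 for ligands, 0.63 for adaptors and kinases, 0.70 for other integrin subunits and -0.06 for regulators, and co-receptors stood at 0.02. Itga8 (2.27), Itgb8 (0.71), Lama5 (1.09) and Vcl (0.27) were higher with AMG in that pair, and Thbs1 (-0.02) and Kank2 (-0.07) were not.

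**Figure D5:**
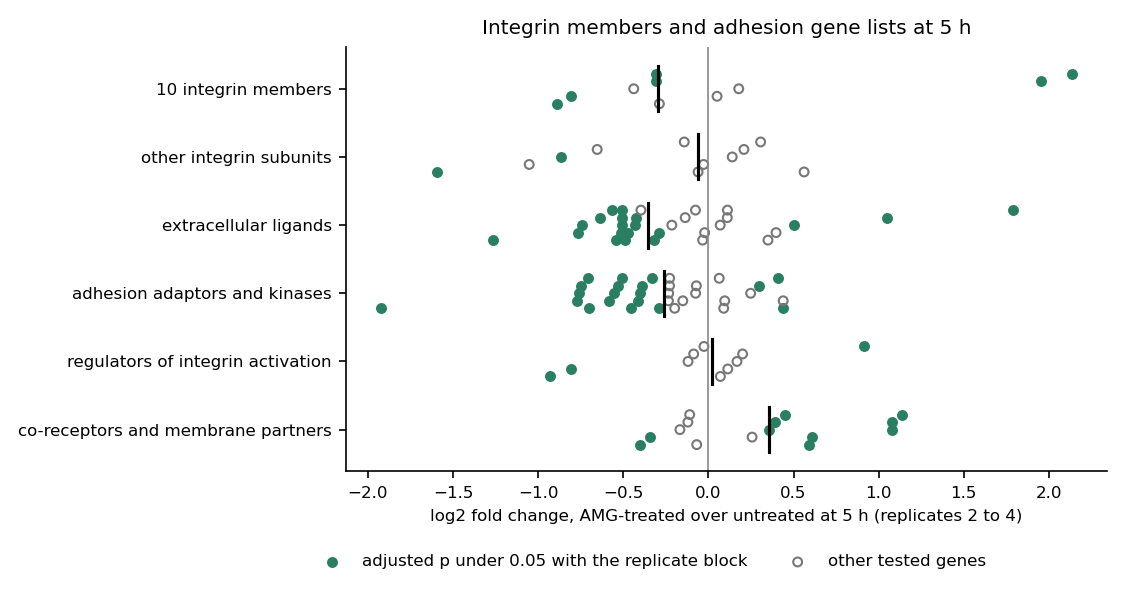
Log2 fold change of AMG-treated over untreated cells at 5 h (horizontal axis, replicates 2 to 4) for each tested gene of the 10 integrin members and of 5 pathway lists, filled where the adjusted p with the replicate block was under 0.05, with a black bar at the median of each list. Medians run from -0.36 for extracellular ligands to 0.36 for co-receptors and membrane partners.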

How the data were processed

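RNA was measured in 14 libraries by stranded mRNA sequencing. Per the labels, the authors used FastQC 0.11.5, TopHat2 2.0.13, SAMtools 0.1.19.24, HTSeq 0.5.3p3 and DESeq with mouse build mm10. The deposited values are a normalised signal, read counts per gene divided by a size factor, in 2 tables scaled separately. Whole reads were recovered for 100% of values within 0.1. Groups came from sample titles. The test was limma 3.58.1 in R 4.3.3 (trend, log2 of value plus 1) in replicates 2 to 4, on the 13096 genes whose mean reached 10, with Benjamini-Hochberg adjustment over all of them. A pseudocount of 1 understates the change of low genes. Replicate 1 had no test, and its intervals (95%, exact binomial) and floor (3 reads) cover counting error only. Same-numbered libraries correlated in their deviations from the group means (r = 0.65, 0.76 and 0.70, other pairs -0.59 to 0.12). Deviations within a group cancel out, so the lower values of the other pairs follow in part from the centring. The number was also fitted as a block, although the labels do not say what it shares. edgeR 4.0.16 and DESeq2 1.42.0 on recovered reads called 135 and 1434 genes. Other alternatives were pseudocount, filter, scaling, length correction and leaving out libraries, and the blocked fits that left out a pair were chosen after seeing the data. All 10 members are named. From each pathway list the 4 genes with the smallest p in the blocked fit are named, except 1 that is not reported here, and for each member called there the 2 most correlated genes (mean of at least 50). The members and lists were chosen with earlier results of these data known. Gene models are GENCODE on GRCm38 and promoters RefSeq windows on GRCm38.p6. The fitting scripts were tested on simulated data.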

Additional observations from a re-analysis of the deposited data

Results flagged for a closer look

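Over the 4 pairs at 5 h, 2 of the 10 members had 1 pair far from the other 3. For Itga1 it was replicate 1, whose gap to the nearest pair was 0.878 of the whole range of log2 ratios (-0.89 to 0.19). The ratio of that pair became -0.59 after a length correction. For Itga4 it was replicate 2, with a gap of 0.887 of the range (-0.81 to -0.24). About 1 in 20 such groups would be marked by chance.

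In several genes a ratio of replicate 1 at another time went against all 4 pairs at 5 h, and none of these differences was tested. Itga2 was higher with AMG in 4 of 4 pairs at 5 h and had a log2 ratio of -1.24 at 1 h, from 25 and 5 reads. Itgb3 was higher in 4 of 4 pairs and stood at -0.38 at 1 h, where the AMG-treated library stood apart, or at 0.0379 after a length correction. Itga4 was lower in 4 of 4 pairs at 5 h and had log2 ratios of 1.47 at 12 h and 1.29 at 24 h. Itga5 was higher in 4 of 4 pairs, and its ratio was -0.10 at 1 h (0.17 after a length correction), -0.51 at 12 h and -0.29 at 24 h.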

How the results depend on the processing

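The pairing of replicates mattered most. Without the block 162 genes and 0 of 10 members were called at 5 h, and with the replicate block 4872 genes and 6 members. Blocked edgeR called 4852 genes and 5 members, edgeR on all 4 replicates with the block 495 and 2, the length correction with the block 4441 and 7, DESeq2 1434 and 2, and limma without its trend 80 genes. Leaving out 1 library gave 1 (without AMG-treated 5h replicate 2) to 2199 genes (without AMG-treated 5h replicate 3) and 0 members throughout, and leaving out a pair from the blocked fit gave 1508, 6803 and 2678 genes (without replicates 2, 3 and 4) and 4 to 7 members, with Itga1, Itga2, Itga11 and Itgb3 called each time. In the lists, unpaired limma called 0 genes. For other integrin subunits, ligands, adaptors, activation regulators and co-receptors in turn, the count was 2, 19, 19, 3 and 10 with the replicate block, 1, 19, 19, 3 and 10 in blocked edgeR, and 3, 13, 17, 3 and 11 with the length correction and block. DESeq2 gave 6, 7, 1 and 2 for the last 4 lists, edgeR on all 4 replicates 2 ligands and 2 co-receptors, and no filter 1 ligand. Without 1 library the counts reached 1, 3, 5, 2 and 3, the lowest non-zero being 1 ligand, and the blocked fits without a pair gave 1 to 4, 6 to 25, 9 to 24, 2 to 4 and 6 to 12. Itga3 turned positive in edgeR on all 4 replicates (0.0319) and without single libraries (range -0.82 to 0.11, with 0.09 as the other positive value). Itgav turned negative without single libraries (-0.14, -0.10 and -0.007, in a range up to 0.26) and in the blocked fit without replicate 3 (-0.0040). In replicate 1 the length correction turned Itga5 (0.17), Itgb1 (0.0851) and Itgb3 (0.0379) positive at 1 h and Itgav (-0.35) and Itga1 (-0.59) negative at 5 h, so that 4 members and not 1 were higher at 1 h and 6 and not 8 at 5 h. With the longest transcript as length, 2 untreated and 3 treated ranks changed. The directions of the other 8 members at 5 h held in every alternative, with adjusted p from 0.000223 to 0.342 for Itga2 and from 5.45e-21 to 0.330 for Itgb3. The cause of these changes was not tested. Itga2 and Itga4, with few reads, are limited most by depth.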
